A study of Mus musculus with 6 samples.

Results

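The 31 genes described here carry long-chain fatty acids into the heart muscle cell and break them down in the mitochondrion. They were taken from a given list of gene symbols, and each was found once among the 57010 gene identifiers of the deposited table after matching to GENCODE M21. Total RNA of mouse heart ventricles at postnatal day 14 was sequenced in 3 control libraries and 3 Cend1-KO libraries, numbered 1, 3 and 4 in each group. The controls are named wild type in the column headings, and the other group carries a knockout of Cend1, which takes its name from cell cycle exit in differentiating neurons. Strain, sex, the design of the knockout allele, and the number of animals behind each library are not given in the labels, and a p-value here compares the groups with the scatter of libraries only, part of which may be technical. Values are the authors' TPM, each gene's length-corrected share of its library, from which sequencing depth cannot be read.

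Fatty acids reach the cardiomyocyte from lipoproteins cut by lipoprotein lipase and from albumin, cross the membrane with the help of CD36, and are held in the cytosol by the binding protein FABP3. Acyl-CoA synthetases activate them, the carnitine shuttle moves them across the inner mitochondrial membrane, and a cycle of dehydrogenation, hydration, dehydrogenation and thiolysis shortens them to acetyl-CoA while electrons pass through the electron transfer flavoprotein to the respiratory chain. The mouse heart shifts from glycolysis toward this pathway in the weeks after birth, and the pathway is a main source of ATP in the adult heart.

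Most of the 31 genes had lower values in the Cend1-KO ventricles, but none passed the test across all genes. As deposited, 28 of the 31 differences were below 0, with a median of -0.47 on the log2(TPM + 1) scale against -0.11 for all 13542 genes tested, and single differences ran from -0.89 for Cpt1b to 0.45 for Cd36. All 31 genes passed the filter of at least 1 TPM in at least 3 libraries. The test, limma with Benjamini-Hochberg adjustment over all tested genes at a threshold of 0.05, called 0 members lower and 0 higher, where it called 0.908% of all genes lower and 0.79% higher. At an unadjusted p under 0.05 stood 14 of the 31, against 15.4% of all genes. In 24 members all 3 Cend1-KO values lay below every control value, against 18.6% of all genes and 24.4% of the 6370 genes at or above the level of the lowest member. One member, Lpl, lay above every control in all 3, against 5.67% of all genes. The lowest adjusted p was 0.0521, for Cpt1b. Simulated data of this design, put through the same test, gave back 15% of true log2 changes of 1 and 84% of true changes of 2. The simulation drew noise for each gene independently and held no shifts shared across a library, so recovery in the real libraries may differ.

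These values moved with the scaling of the libraries. Genes of the mitochondrial genome took 18.3% to 19.9% of TPM in the controls and 17.9%, 34.9% and 22.9% in Cend1-KO replicates 1, 3 and 4; since TPM are shares, a larger mitochondrial share leaves less for all other genes. After median-of-ratios scaling, which sets the typical gene equal between libraries (size factors 0.715 to 1.24), the median over all genes moved to -0.0061 and that over the members to -0.34, with 27 of 31 below 0. Cpt1b was then called lower (adjusted p = 0.0483) and no other member in either direction, where 4.32% of all genes were called lower and 5.99% higher. At an unadjusted p under 0.05 stood 10 of 31 members, against 28.3% of all genes. The groups were apart with Cend1-KO lower in 8 members (Cpt1b, Slc25a20, Acadm, Acadvl, Fabp3, Slc27a1, Mlycd and Crat), against 17.7% of all genes, and with Cend1-KO higher in 1, Lpl, against 17.2%. Without Cend1-KO replicate 3, 8 members were called lower as deposited (Acadl, Acsl1, Cpt1b, Cpt2, Crat, Fabp3, Hadha and Slc25a20), where 2.35% of all genes were, and 4 after scaling (Acsl1, Cpt1b, Crat and Hadha), where 4.4% of all genes were. The member median minus that of all genes ran from -0.46 to -0.14 over the 26 fits that were run.

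Marker transcripts of several cell types moved with the groups. The 12 cardiomyocyte markers, of which Myl2, Actc1 and Myl3 were the most abundant, summed to 60707 to 67929 TPM in controls and 33946 to 51039 TPM in Cend1-KO. Their median difference was -0.55 as deposited, and 0 of 12 were called. In 10 the Cend1-KO values lay below every control, against 18.6% of all genes. After scaling this held in 2, against 17.7% of all genes. In ventricle tissue, fewer cells of a type and less RNA per cell cannot be told apart. Per unit of summed cardiomyocyte marker TPM, 0 members lay below every control in all 3 Cend1-KO libraries, against 1.46% of all genes, and 7 lay above, against 40.4% of all genes. Those were Cpt1a, Echs1, Etfa, Cd36, Lpl, Slc22a5 and Pnpla8, and the groups overlapped in the other 24. The summed TPM of the 31 members came to 29.9, 29.6 and 31.1 per 100 TPM of cardiomyocyte markers in control replicates 1, 3 and 4 and to 35.1, 30.97 and 27.6 in Cend1-KO replicates 1, 3 and 4 (30.2 ± 0.755 and 31.2 ± 3.79, SD, n = 3 each). On that scale the 2 groups overlapped, whereas the plain sums, 19748, 20138 and 18855 TPM in controls and 14957, 10514 and 14071 TPM in Cend1-KO, did not.

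Markers of other cells were measured beside this. Of 11 endothelial markers 0 were called (3 after scaling), with a median of 0.58 and sums of 482.8 to 615.0 TPM in controls and 484.2 to 1484 in Cend1-KO, where replicate 1 stood apart. The adipocyte marker sum, 1280 to 1552 TPM in controls and 1988 to 4083 in Cend1-KO, was 96.5% to 98.3% Fabp4, which endothelium and macrophages also carry, and without Fabp4 it was 34.98 to 44.3 and 54.99 to 71.3 TPM. Of the list, 3 of 7 tested adipocyte markers were called higher as deposited (Cfd, Adipoq and Retn) and 4 after scaling. Lep stayed at or near 0 in every library. Cfd, Adipoq and Retn were at most 0.106, 1.27 and 0.430 TPM in the controls and passed the filter through the Cend1-KO libraries. Without the filter on low values 0 of 30114 genes were called in either direction. Fibroblast markers summed to 1375 to 2468 and 2805 to 4163 TPM, and 1 of 8 rose, Lum (4 after scaling). Of 8 macrophage markers 0 were called (3 after scaling), with sums of 600.8 to 926.6 and 783.0 to 1564 TPM. Of 5 erythroid markers 3 rose (5 after scaling), with sums of 1389 to 4473 and 10630.0 to 24495 TPM. Of 3 tested brown adipocyte markers 0 were called as deposited and 1 was lower after scaling, Cidea. Elovl3 was near 0 in every library. Ucp1 was near 0 in every control, 0 in Cend1-KO replicates 1 and 4, and 1.22 TPM in Cend1-KO replicate 3. Of 4 tested skeletal muscle markers 0 were called. Lung epithelial markers, of which 0 of 7 reached the test, summed to at most 0.187 TPM in controls, 0.334 in Cend1-KO replicate 3, and 501.2 and 827.9 in Cend1-KO replicates 1 and 4, with Sftpc listed at 0 in all controls. Without Cend1-KO replicates 1 and 4, which leaves replicate 3 alone against the controls, 19 members were called lower and 1 higher, Cd36, where 40.8% of all genes were called lower and 1.86% higher. The part of the other marker lists in the member differences was not tested. Cend1 was at 1.44, 1.99 and 1.54 TPM in the controls and listed at 0 in all 3 Cend1-KO libraries (difference -1.40, adjusted p = 0.00111, and 0.0742 without the filter on low values).

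**Figure D1:**
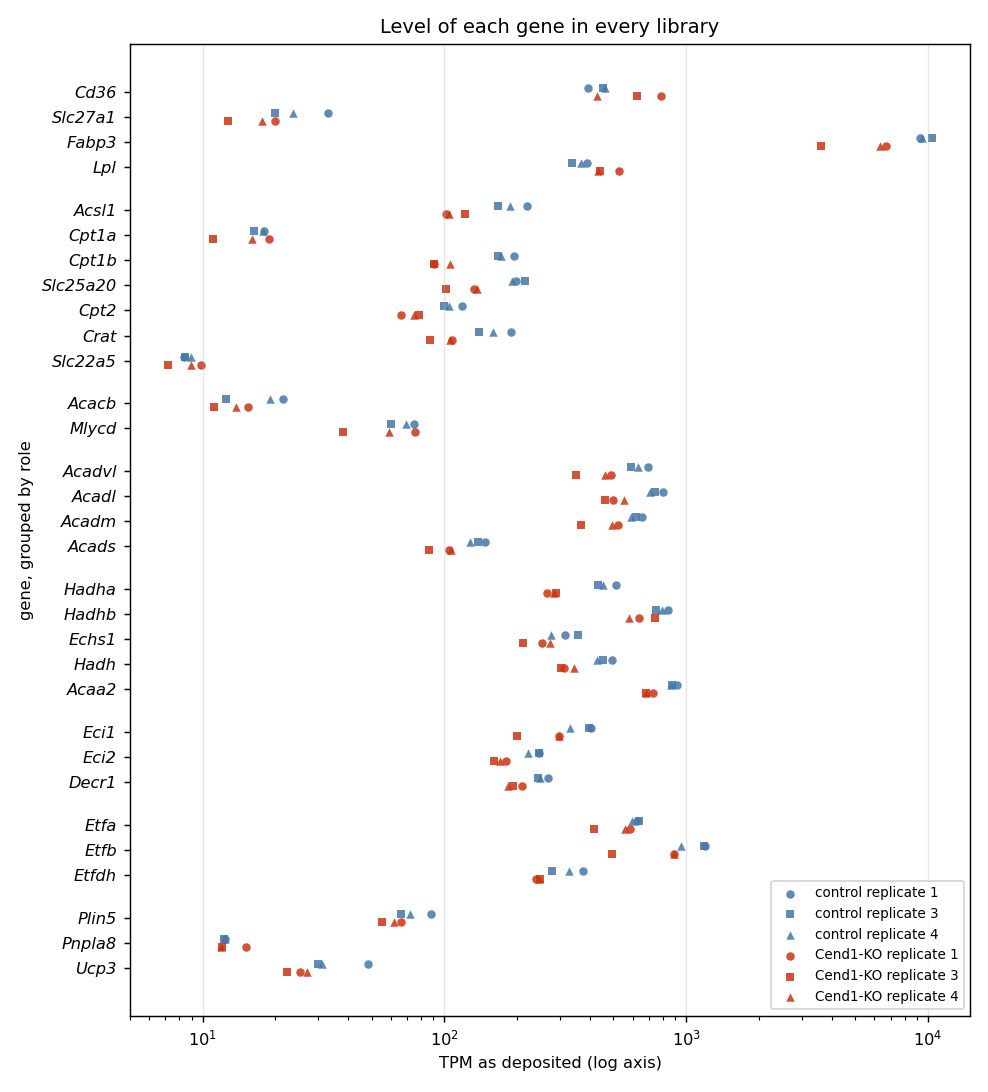
TPM of each of the 31 genes in the 6 libraries on a log axis, grouped by role; blue marks controls and red marks Cend1-KO, with circles, squares and triangles for replicates 1, 3 and 4. Levels run from 8.59 TPM for Slc22a5 to 9691 TPM for Fabp3 in control means. In 24 genes the red points all lie left of the blue ones, against 18.6% of all genes tested.

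**Figure D2:**
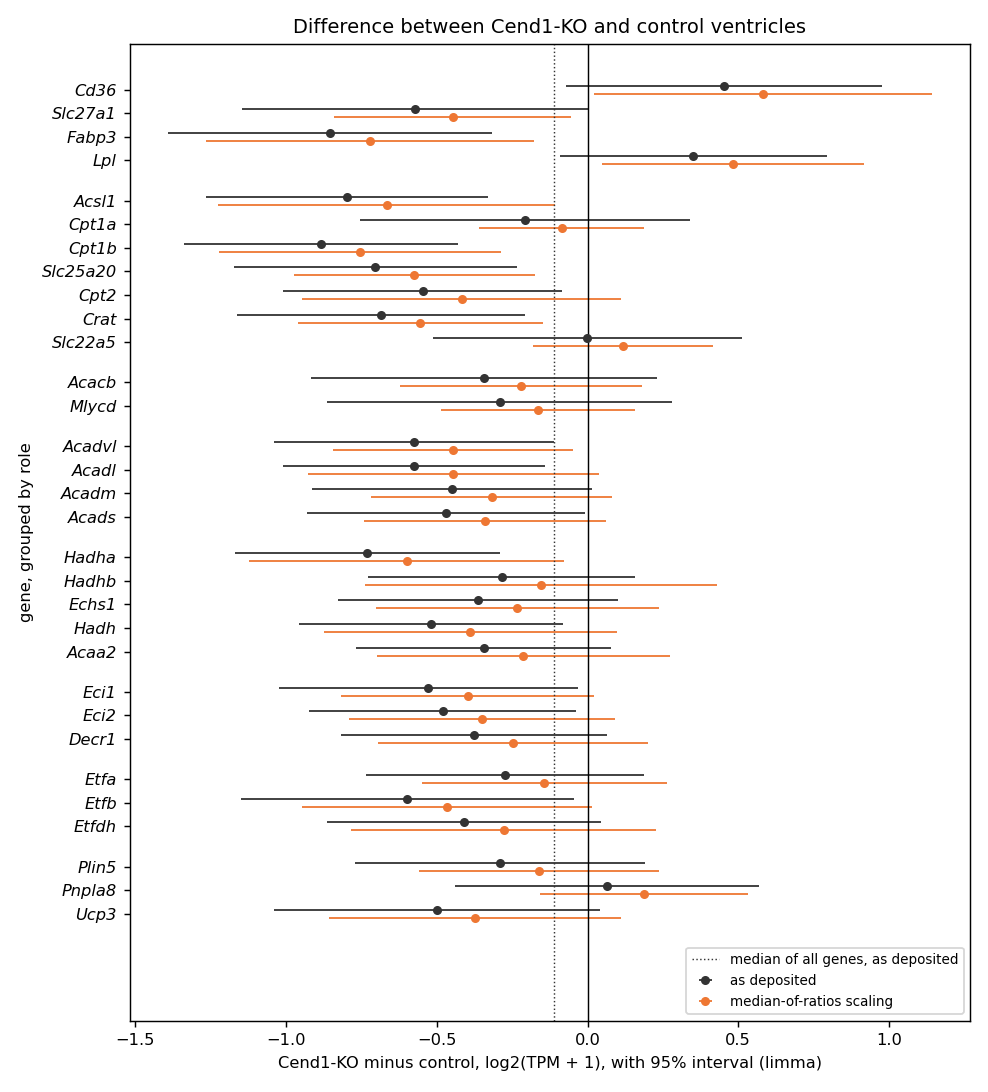
Difference of each gene between the groups (log2 of TPM + 1, negative where Cend1-KO is lower) with its 95% interval from limma, grouped by role, as deposited (black) and after median-of-ratios scaling (orange); the dotted line is the median of all genes as deposited, -0.11. Cpt1b has the lowest difference on both scales (-0.89 and -0.76), and Cd36 and Lpl are the highest.

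Uptake and binding were covered by 4 members, whose differences had both signs. Fabp3 (chromosome 4, 130308595 to 130315463, plus strand, mm10), the cytosolic fatty acid binding protein of heart and muscle, was the most abundant member. Its transcript was measured at 9269, 10396 and 9408 TPM for control replicates 1, 3 and 4 and 6703, 3604 and 6352 TPM for Cend1-KO replicates 1, 3 and 4. Every Cend1-KO library was below every control, and replicate 3 was lowest. Zcchc17, which shares 81 exonic bases with it on the opposite strand, stood at 14.5 to 26.1 TPM. The difference was -0.85 (SE 0.25, 95% interval -1.39 to -0.32, adjusted p = 0.12), and -0.72 after scaling (adjusted p = 0.0863). Fabp3 made up 46.9%, 51.6% and 49.9% of the summed member TPM in the controls and 44.8%, 34.3% and 45.1% in Cend1-KO, and the groups did not overlap. The other 30 members together gave 9448 to 10479 TPM in controls and 6909 to 8254 TPM in Cend1-KO, so the sums were apart without Fabp3 as well.

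Cd36 (chromosome 5, 17781690 to 17888801, minus strand) encodes the fatty acid translocase, which endothelial cells, adipocytes and macrophages also carry. It was measured at 393, 450.4 and 461 TPM for control replicates 1, 3 and 4 and 783, 626 and 427 TPM for Cend1-KO replicates 1, 3 and 4. Cend1-KO replicates 1 and 3 lay above all controls, and replicate 4 lay within their range. The mean was 141% of control, with a difference of 0.45 (95% interval -0.072 to 0.98, adjusted p = 0.398) and of 0.58 after scaling (adjusted p = 0.163). After scaling, Cd36 was at 633.9, 875.0 and 432.5 in Cend1-KO replicates 1, 3 and 4, so that the highest library changed from replicate 1 to replicate 3, while the scaled endothelial marker sum was highest in replicate 1 (1202, 676.8 and 657.2).

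Lpl (chromosome 8, 68880491 to 68907448, plus strand), the lipase that frees fatty acids from circulating triglyceride, is made by cardiomyocytes and adipocytes and acts on the capillary wall. It was measured at 388, 338 and 368 TPM for control replicates 1, 3 and 4 and 525, 442 and 433 TPM for Cend1-KO replicates 1, 3 and 4. All 3 Cend1-KO libraries were above all controls as deposited, the only member of which this held. The difference was 0.35 (95% interval -0.093 to 0.80, adjusted p = 0.442), and 0.48 after scaling (adjusted p = 0.14). When all values were divided by the cardiomyocyte marker sum, an alternative added after the data were seen, Cd36 and Lpl were called higher at 1.08 and 0.98 (adjusted p = 7.19e-04 and 2.07e-04), where 22% of all genes were called higher and 0.65% lower. The endothelial and macrophage marker sums overlapped between the groups as deposited and did not after scaling (465.5 to 626.4 against 657.2 to 1202, and 611.9 to 831.4 against 1095 to 1583), and their part in the Cd36 and Lpl values was not tested.

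Slc27a1, the fatty acid transport protein FATP1, was measured at 32.8, 20.00 and 23.7 TPM in the controls and 19.97, 12.7 and 17.7 TPM in Cend1-KO, with a difference of -0.57 (adjusted p = 0.327). The lowest control and the highest Cend1-KO library were nearly level, at 19.998 and 19.967 TPM. Cd36 stood at 0.0424, 0.0433 and 0.0490 of the Fabp3 level in the controls and at 0.117, 0.174 and 0.0673 in Cend1-KO. Lpl stood at 0.0419, 0.0325 and 0.0391 of Fabp3 in the controls and at 0.0783, 0.122 and 0.0681 in Cend1-KO. Both ratios, which do not depend on how libraries are scaled and were chosen after their values were seen, were higher in each Cend1-KO library than in any control.

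**Figure D3:**
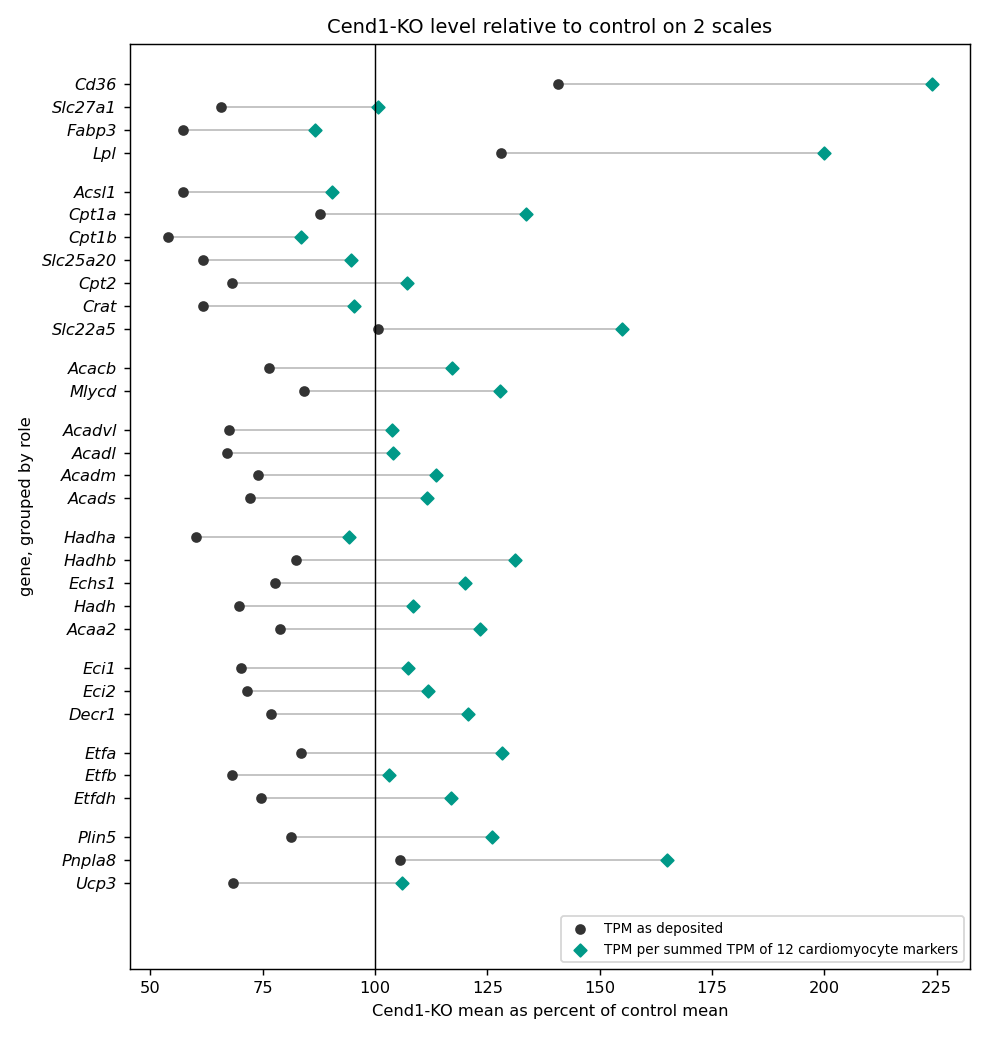
Cend1-KO mean of each gene as a percent of the control mean, as deposited (black circles) and per unit of summed cardiomyocyte marker TPM (green diamonds), grouped by role, with a line at the control mean. Cpt1b lies lowest on both scales, at 53.9% and 83.6%, and Cd36 highest, at 141% and 224%.

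The promoter window read for Cd36 was the poorest in G and C of the members'. RefSeq promoter windows (GRCm38.p6), 250 bases before to 50 after the gene start, were matched for 26 of the 31 genes. These genes had 30 windows, and G and C were read in the first one listed for each gene. G and C made up 43% of the Cd36 window and 50.7% to 74% of the others. The Cd36 window lay inside the GENCODE bounds of the gene, away from its annotated start at 17888801. The nuclear receptor hexamer AGGTCA, the core of the elements bound by PPAR and ERR factors, was found on either strand in the windows of 8 of the 26 genes (30.8%), against 18.1% of all 27025 genes with a window. Those 8 were Acacb, Acadm, Acadvl, Cd36, Cpt1a, Echs1, Plin5 and Ucp3. The longer DR1 element, in which a pair of these hexamers is joined by any 1 base, and the ERR element TCAAGGTCA, which ends in one hexamer, were in 0 of 26, against 0.0481% and 0.466% of all genes. TATAAA was in 1, Acacb, against 15.7% of all genes. The windows of Cd36 (chr5:17835847-17836146, minus strand) and Acadm (chr3:153944594-153944893, minus strand) are shown as one member that was higher in 2 Cend1-KO libraries and one that was lower in all 3, both with the hexamer in capitals, read as TGACCT on the strand shown.
Cd36: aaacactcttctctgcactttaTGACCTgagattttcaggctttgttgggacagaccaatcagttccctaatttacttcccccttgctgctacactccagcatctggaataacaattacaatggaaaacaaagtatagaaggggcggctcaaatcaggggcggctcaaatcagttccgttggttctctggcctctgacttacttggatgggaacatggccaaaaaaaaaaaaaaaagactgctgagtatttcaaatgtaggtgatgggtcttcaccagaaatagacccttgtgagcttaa
Acadm: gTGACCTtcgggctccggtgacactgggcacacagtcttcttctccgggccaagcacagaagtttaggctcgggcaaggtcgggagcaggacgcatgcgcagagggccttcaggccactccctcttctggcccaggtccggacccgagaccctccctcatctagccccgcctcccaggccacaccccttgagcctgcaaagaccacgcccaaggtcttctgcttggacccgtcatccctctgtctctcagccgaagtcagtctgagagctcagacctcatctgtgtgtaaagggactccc
Both carry the hexamer near the far end of the window, 228 and 249 bases before RefSeq's gene start. A match is a description of the letters and not evidence of binding.

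Activation and the carnitine shuttle held the lowest differences of all roles, with a median of -0.68 over 7 members and 0 called as deposited. Cpt1b (chromosome 15, 89416405 to 89425863, minus strand), the muscle form of carnitine palmitoyltransferase 1 at the outer mitochondrial membrane and the controlled step of entry, led them. It was measured at 194, 167 and 171 TPM for control replicates 1, 3 and 4 and 90.8, 90.5 and 105 TPM for Cend1-KO replicates 1, 3 and 4. As deposited the groups were apart by a wide gap, and the 3 Cend1-KO values were close together. The mean was 53.9% of control (177 ± 14.8 TPM in controls and 95.4 ± 8.23 TPM in Cend1-KO, SD, n = 3 each), a difference of -0.89 (SE 0.21, 95% interval -1.34 to -0.43, adjusted p = 0.0521). After scaling it was -0.76 (adjusted p = 0.0483), which passed, whereas upper-quartile scaling gave -0.81 (adjusted p = 0.0508), which did not. The median-of-ratios scaled Cend1-KO values were more spread, at 73.6, 126.5 and 106.2 in replicates 1, 3 and 4, with the lowest control at 151.9. After median-of-ratios scaling with each library left out in turn, Cpt1b passed in 1 of 6 fits, the one without Cend1-KO replicate 3 (adjusted p = 0.0229), and the adjusted p reached 0.182. Relative to cardiomyocyte marker TPM the difference was -0.26 (adjusted p = 0.381).

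An annotated model, Gm44502, shares 2744 of the 3372 exonic bases of Cpt1b on the same strand. How the authors' counting treated reads in the shared bases is not given. Such reads could have been given to one gene or left out of both. Gm44502 was at 2.86, 6.72 and 2.08 TPM in the controls and 0.0835, 0.235 and 0 TPM in Cend1-KO. It fell by 2.03 on the log2 scale (adjusted p = 0.00330). Without the filter on low values its adjusted p was 0.204, in a fit that called 0 of 30114 genes. Gm44502 made up 1.20% to 3.88% of the sum of both in the controls and at most 0.259% in Cend1-KO. Summed over both, the values were 196.9, 173.2 and 173.0 TPM in the controls and 90.9, 90.8 and 104.9 TPM in Cend1-KO, and the groups stayed apart. Reads left out of both genes would not be in this sum, so it does not settle the effect of the overlap.

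Cpt1a (chromosome 19, 3322334 to 3385733, plus strand), the liver form, which the fetal and newborn heart uses more than the adult heart, was the third least abundant member. It was measured at 18.01, 16.4 and 17.8 TPM for control replicates 1, 3 and 4 and 18.8, 11.03 and 15.9 TPM for Cend1-KO replicates 1, 3 and 4. The groups overlapped, with Cend1-KO replicate 1 above all controls and replicates 3 and 4 below them (difference -0.21, adjusted p = 0.741). The ratio of Cpt1b to Cpt1a was 10.8, 10.2 and 9.61 in the controls and 4.84, 8.21 and 6.59 in Cend1-KO (10.2 ± 0.582 and 6.54 ± 1.69, SD, n = 3 each). All 3 Cend1-KO ratios lay below all control ratios, a difference of -0.67 on the log2 scale, with an exact two-sided permutation p of 0.10, the smallest that 3 against 3 can give.

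**Figure D4:**
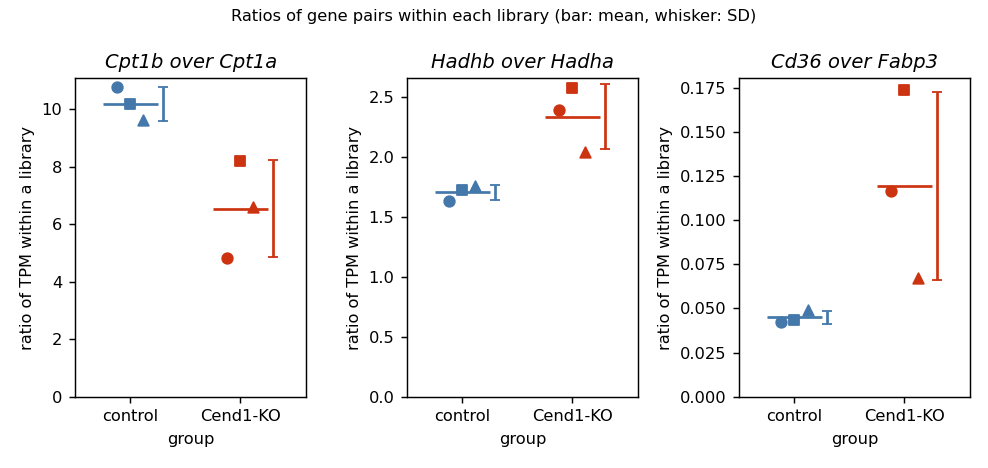
Ratios of TPM of gene pairs within each library, which do not depend on library scaling: Cpt1b to Cpt1a, Hadhb to Hadha and Cd36 to Fabp3, with points for libraries (circles, squares and triangles for replicates 1, 3 and 4), bars for group means and whiskers for the SD. The Cpt1b to Cpt1a ratio is 9.61 to 10.8 in the controls and 4.84 to 8.21 in Cend1-KO.

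Acsl1, the main long-chain acyl-CoA synthetase of the heart, was measured at 219, 167 and 187 TPM for control replicates 1, 3 and 4 and 102, 122 and 104 TPM for Cend1-KO replicates 1, 3 and 4. Its groups were apart, with a mean of 57.2% of control (difference -0.80, SE 0.22, adjusted p = 0.0918; -0.67 and adjusted p = 0.116 after scaling). Slc25a20, the carrier that exchanges acylcarnitine for carnitine across the inner membrane, was at 197, 216 and 189.6 TPM in the controls and 133, 102 and 137 TPM in Cend1-KO. Crat, carnitine acetyltransferase, was at 188, 139 and 159 TPM in the controls and 107, 87.1 and 106 TPM in Cend1-KO. Both were lower in every Cend1-KO library, with differences of -0.70 and -0.68 on the log2 scale (adjusted p = 0.138 and 0.156).

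Cpt2, which turns acylcarnitine back to acyl-CoA inside the mitochondrion, was at 119, 99.5 and 104 TPM in the controls and 66.4, 78.5 and 74.6 TPM in Cend1-KO, with a difference of -0.55 (adjusted p = 0.245). In this gene Cend1-KO replicate 1 was lowest as deposited, as also in Acsl1, Hadha and Etfdh. After scaling the Cpt2 groups overlapped, with Cend1-KO replicate 3 at 109.7 and the controls at 92.4 to 114.5. Slc22a5, the plasma membrane carnitine transporter OCTN2, was the least abundant member, at 8.41, 8.43 and 8.91 TPM in the controls and 9.83, 7.18 and 8.93 TPM in Cend1-KO. Its groups overlapped and its difference was -0.00040 (95% interval -0.51 to 0.51), turning to 0.12 after scaling. The shuttle thus held both the member with the lowest difference and the one whose difference was nearest to 0.

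Malonyl-CoA, the inhibitor of CPT1, is made at the mitochondrion by the carboxylase Acacb and removed by the decarboxylase Mlycd. Acacb was at 21.4, 12.5 and 19.01 TPM in the controls and 15.5, 11.2 and 13.8 TPM in Cend1-KO, and Mlycd at 75.1, 60.3 and 69.5 TPM in the controls and 75.5, 37.9 and 59.2 TPM in Cend1-KO. The groups overlapped for both, with differences of -0.34 and -0.29 (adjusted p = 0.57 and 0.634). Enzymes that make and remove the inhibitor thus gave differences of the same sign and like size.

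The acyl-CoA dehydrogenases, which take the first step of each cycle for chains of different length, had a median difference of -0.52. As deposited all 4 had groups apart, against 18.6% of all genes, and after scaling 2 of 4, Acadvl and Acadm. Acadvl, for very long chains, was measured at 696, 590.2 and 634 TPM for control replicates 1, 3 and 4 and 487, 349 and 462 TPM for Cend1-KO replicates 1, 3 and 4. Acadl, for long chains, was at 798, 742 and 709 TPM in the controls and 496, 461 and 554 TPM in Cend1-KO. Acadm, for medium chains, was at 654, 619.7 and 593 TPM in the controls and 523, 365 and 494 TPM in Cend1-KO. In all 3 the lowest library was Cend1-KO replicate 3.

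Acads, for short chains, was at 147, 137 and 128 TPM in the controls and 105, 86.2 and 107 TPM in Cend1-KO. The differences were -0.58, -0.58, -0.45 and -0.47 from very long to short chains, and the adjusted p-values were 0.221, 0.192, 0.342 and 0.315. The 95% intervals, -1.04 to -0.11, -1.01 to -0.14, -0.91 to 0.016 and -0.93 to -0.0083, overlapped, so no order by chain length could be read. Acadvl shares 1151 exonic bases with Dvl2 on the opposite strand, and the library kit is not stated to mark strand. Dvl2 stood at 1.63 to 3.79 TPM in all libraries. That level does not show whether reads in the shared bases were counted for Acadvl.

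The later steps of the cycle were covered by 5 members, with a median of -0.36. All 5 had groups apart as deposited, against 18.6% of all genes, and 0 of 5 after scaling. Hadha (chromosome 5, 30118304 to 30155162, minus strand) and Hadhb (chromosome 5, 30155248 to 30184593, plus strand) encode the alpha and beta subunits of the mitochondrial trifunctional protein and lie head to head, with annotated starts 86 bp apart. Hadha was measured at 512, 432 and 453 TPM for control replicates 1, 3 and 4 and 266, 289 and 284 TPM for Cend1-KO replicates 1, 3 and 4. Hadhb was measured at 838, 746 and 796 TPM for control replicates 1, 3 and 4 and 636, 744 and 580.2 TPM for Cend1-KO replicates 1, 3 and 4. As deposited Hadha was at 60.1% of control, whereas Hadhb was at 82.4% and its replicate 3 lay just under the lowest control. After scaling the groups overlapped for both, with Hadha at 404.2 in Cend1-KO replicate 3 and 402.3 in control replicate 4.

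The differences were -0.73 for Hadha (SE 0.20, adjusted p = 0.10) and -0.29 for Hadhb (SE 0.21, adjusted p = 0.535). Their 95% intervals, -1.17 to -0.29 and -0.73 to 0.16, overlapped. The ratio of Hadhb to Hadha was 1.64, 1.73 and 1.76 in the controls and 2.39, 2.57 and 2.04 in Cend1-KO. This ratio, chosen after its values were seen, was higher in each Cend1-KO library than in any control. The RefSeq window of Hadhb (chr5:30155003-30155302, plus strand) shares 228 bases with that of Hadha (chr5:30154931-30155230, minus strand), in capitals below. The Hadhb window is shown because the pair shares a start region.
Hadhb: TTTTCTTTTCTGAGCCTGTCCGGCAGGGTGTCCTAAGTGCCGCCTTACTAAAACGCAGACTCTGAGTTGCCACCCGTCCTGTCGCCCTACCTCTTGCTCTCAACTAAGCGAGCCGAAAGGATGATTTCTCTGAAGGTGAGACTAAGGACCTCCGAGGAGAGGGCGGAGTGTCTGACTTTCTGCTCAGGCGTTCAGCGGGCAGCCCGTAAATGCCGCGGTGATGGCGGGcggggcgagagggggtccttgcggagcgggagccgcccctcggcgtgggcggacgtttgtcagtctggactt
None of the 5 motifs searched was found in it.

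Hadh, the short-chain hydroxyacyl-CoA dehydrogenase, was at 491, 453 and 428 TPM in the controls and 311, 302 and 342 TPM in Cend1-KO (-0.52, adjusted p = 0.242). Echs1, the short-chain enoyl-CoA hydratase, was at 315, 356 and 277 TPM in the controls and 252, 212 and 272 TPM in Cend1-KO (-0.36, adjusted p = 0.447). Acaa2, the mitochondrial thiolase, was at 912, 873 and 863 TPM in the controls and 725, 679 and 682 TPM in Cend1-KO (-0.34, adjusted p = 0.426). Acaa2 was the third most abundant member, and Echs1 came close to overlap, with 276.9 TPM in the lowest control and 272.2 TPM in the highest Cend1-KO library.

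The auxiliary enzymes handle double bonds that the cycle cannot pass. Eci1 and Eci2 are enoyl-CoA isomerases, and Decr1 is the dienoyl-CoA reductase. Eci1 was at 403, 396 and 331 TPM in the controls and 297, 199 and 297 TPM in Cend1-KO, Eci2 at 245, 247 and 222 TPM in the controls and 180.5, 161 and 169 TPM in Cend1-KO, and Decr1 at 268, 243 and 248 TPM in the controls and 209, 192 and 183 TPM in Cend1-KO. As deposited all 3 were lower in every Cend1-KO library, against 18.6% of all genes, and after scaling the groups overlapped in each. The deposited differences were -0.53, -0.48 and -0.38 (adjusted p = 0.296, 0.288 and 0.403).

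Electrons of the dehydrogenases leave through the electron transfer flavoprotein, a dimer of Etfa and Etfb, and its oxidoreductase Etfdh. Etfb (chromosome 7, 43444083 to 43457800, plus strand), the second most abundant member, was measured at 1199.7, 1188 and 946 TPM for control replicates 1, 3 and 4 and 892, 491 and 886 TPM for Cend1-KO replicates 1, 3 and 4. Etfa was at 624, 639.9 and 596 TPM in the controls and 582, 414 and 559 TPM in Cend1-KO, and Etfdh at 374, 279 and 328 TPM in the controls and 239.9, 248 and 245 TPM in Cend1-KO. As deposited all 3 were lower in every Cend1-KO library, against 18.6% of all genes, and after scaling the groups overlapped in each. Etfb, at a deposited 491.4 TPM in Cend1-KO replicate 3, lay there well below its other Cend1-KO values. Gm45233, a model on the same strand that shares 617 of the 1164 exonic bases of Etfb, stood at no more than 0.737 TPM. That level does not show whether reads in the shared bases were counted for Etfb. The differences were -0.60, -0.27 and -0.41 (adjusted p = 0.288, 0.575 and 0.377).

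The ratio of Etfb to Etfa was 1.92, 1.86 and 1.59 in the controls and 1.53, 1.19 and 1.59 in Cend1-KO, with control replicate 4 at 1.588 and Cend1-KO replicate 4 at 1.587, so the groups nearly met. The NRF1 motif, GCGCA and GCGC with any 1 base between them, bound by a factor of nuclear genes for mitochondrial proteins, was in the windows of 3 of 26 genes (11.5%), Etfb, Etfdh and Slc22a5, against 5.19% of all genes. The windows of Etfb (chr7:43443822-43444121, plus strand) and Etfdh (chr3:79628718-79629017, minus strand) are shown because both belong to the electron transfer chain, with the motif in capitals.
Etfb: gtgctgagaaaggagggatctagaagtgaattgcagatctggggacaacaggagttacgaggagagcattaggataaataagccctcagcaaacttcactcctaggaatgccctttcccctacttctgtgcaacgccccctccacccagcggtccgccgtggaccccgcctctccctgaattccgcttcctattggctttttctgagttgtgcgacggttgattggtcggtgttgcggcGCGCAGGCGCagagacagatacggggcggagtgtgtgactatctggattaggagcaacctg
Etfdh: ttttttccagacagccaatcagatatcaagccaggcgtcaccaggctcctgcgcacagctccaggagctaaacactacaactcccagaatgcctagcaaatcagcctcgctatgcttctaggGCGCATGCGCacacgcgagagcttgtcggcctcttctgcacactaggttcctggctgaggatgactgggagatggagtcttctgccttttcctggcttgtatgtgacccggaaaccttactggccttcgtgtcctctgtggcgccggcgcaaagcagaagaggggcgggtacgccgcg
The motif starts 11 bases before the gene start in Etfb and 128 bases before it in Etfdh. Slc22a5, with the same motif, had a difference near 0.

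Of the members at the edge of the pathway, Plin5, which coats lipid droplets beside mitochondria, was at 87.6, 66.4 and 72.2 TPM in the controls and 66.4, 55.3 and 61.98 TPM in Cend1-KO (-0.29, adjusted p = 0.564). Ucp3, a mitochondrial carrier of muscle, was at 48.1, 30.00 and 31.1 TPM in the controls and 25.4, 22.4 and 26.96 TPM in Cend1-KO (-0.50, adjusted p = 0.363). Pnpla8, a calcium-independent phospholipase, was at 12.4, 12.3 and 12.3 TPM in the controls and 15.2, 12.03 and 11.9 TPM in Cend1-KO (0.064, adjusted p = 0.926). Its Cend1-KO replicate 1 lay above the controls and the other 2 just below them. In Plin5 the highest Cend1-KO and the lowest control value were nearly level, at 66.39 and 66.43 TPM.

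The Cend1-KO libraries differed among themselves. After scaling, the median of the members against the control mean was 0.11, 0.033 and -0.15 in control replicates 1, 3 and 4 and -0.56, -0.092 and -0.31 in Cend1-KO replicates 1, 3 and 4. Cend1-KO replicate 3 thus lay within the controls on that scale, with 11 members below the lowest control, 13 within and 7 above, whereas replicate 1 had 27 below and replicate 4 had 21. The cardiomyocyte marker median was -0.80, -0.23 and -0.25 in the same 3 libraries and the endothelial one 1.40, 0.32 and 0.27, so the library with the lowest member median was lowest in cardiomyocyte and highest in endothelial markers. Adipocyte markers stood at 1.02, 1.07 and 0.97. What part these markers have in the member medians was not tested.

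**Figure D5:**
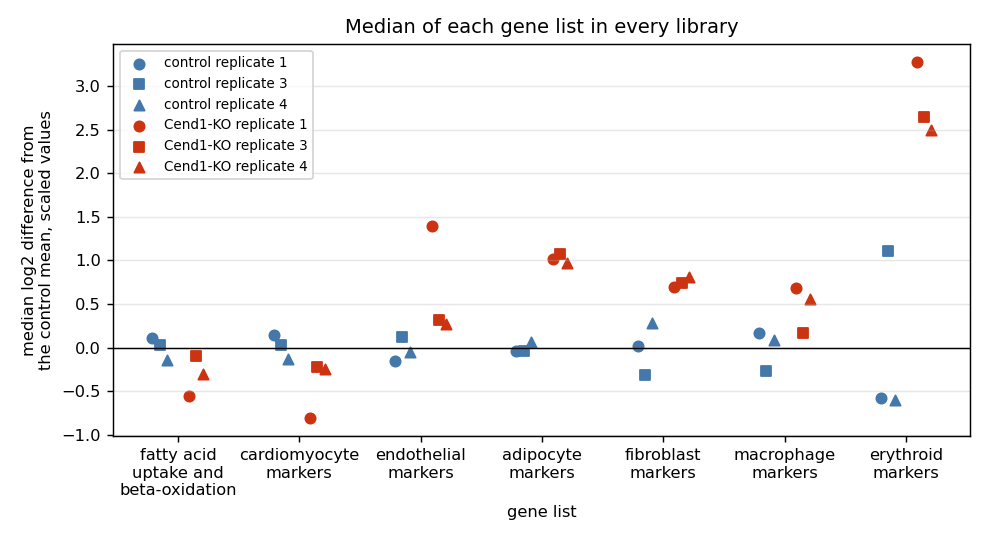
Median of the 31 members and of 6 cell type marker lists in each library, as the log2 difference from the control mean after median-of-ratios scaling. Cend1-KO replicate 1 has the lowest member median (-0.56) and cardiomyocyte median (-0.80) and the highest endothelial median (1.40).

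The other lipid lists, chosen by pathway, had medians between -0.30 and -0.061 as deposited. Of 14 tested peroxisomal oxidation genes 0 were called as deposited and 1 was higher after scaling, Abcd2, a peroxisomal fatty acyl-CoA transporter, at 1.55, 1.53 and 1.53 TPM in the controls and 2.81, 2.08 and 2.23 TPM in Cend1-KO (adjusted p = 0.351, and 0.0453 after scaling). With any 1 library left out, the scaled call of Abcd2 was lost (adjusted p = 0.0614 to 0.143). The list median was -0.30 as deposited. Decr2, the peroxisomal counterpart of Decr1, was at 14.3 ± 0.573 TPM in controls and 9.89 ± 2.37 TPM in Cend1-KO (adjusted p = 0.345), and Abcd3 and Hsd17b4 had adjusted p-values of 0.367 and 0.373. Ketone body genes had a median of -0.061, with 0 of 7 called as deposited and Bdh2, a hydroxybutyrate dehydrogenase, higher after scaling (0.94 ± 0.209 TPM in controls and 2.19 ± 0.668 TPM in Cend1-KO; adjusted p = 0.128, and 0.0159 after scaling). Slc16a1, the monocarboxylate transporter that takes up ketone bodies, was at 34.02 ± 3.96 TPM in controls and 23.6 ± 3.65 TPM in Cend1-KO (adjusted p = 0.321), and Slc16a7, another monocarboxylate transporter, had an adjusted p of 0.784.

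Triglyceride storage and lipolysis genes had a median of -0.17, with 0 of 14 called as deposited and 1 lower after scaling, Cidea, a lipid droplet protein, at 60.9, 48.8 and 43.97 TPM in the controls and 29.2, 21.96 and 30.6 TPM in Cend1-KO (adjusted p = 0.0918, and 0.0279 after scaling). Agpat2, Gpam and Lpin1, which build glycerolipids, had differences of -0.55, -0.45 and -0.42 (adjusted p = 0.294, 0.39 and 0.454). Other uptake and activation genes had a median of -0.12, with 0 of 14 tested called as deposited and 1 higher after scaling, Fabp4, the binding protein of adipocytes, capillary endothelium and macrophages. Fabp4 was at 1236, 1299 and 1517 TPM in the controls and 4012, 1933 and 2488 TPM in Cend1-KO (adjusted p = 0.0776, and 0.00982 after scaling). With each library left out in turn, the scaled adjusted p ran from 0.00695 to 0.0732 for Bdh2, 0.0187 to 0.126 for Cidea and 0.0138 to 0.0741 for Fabp4. The call of Bdh2 was lost without control replicate 1 or 3, that of Cidea without control replicate 1 or 3 or Cend1-KO replicate 1, and that of Fabp4 without control replicate 1. Fabp4 stood opposite to Fabp3, its heart relative, with every Cend1-KO library above every control. Dbi, the acyl-CoA binding protein, was at 656, 719.8 and 553 TPM in the controls and 397, 214 and 469.6 TPM in Cend1-KO (adjusted p = 0.136), and Got2 and Angptl4 had differences of -0.66 and -0.77 (adjusted p = 0.155 and 0.273).

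Branched-chain and odd-chain acyl-CoA genes had a median of -0.26, with 0 of 14 called on either scale. Pccb and Pcca, the propionyl-CoA carboxylase subunits, had differences of -0.48 and -0.35 (adjusted p = 0.363 and 0.495), and Acad8 and Hsd17b10 of -0.41 and -0.34 (adjusted p = 0.473 and 0.484). Of 4 other acyl-CoA dehydrogenases, Acad9, Acad10, Acad11 and Acad12, 0 were called on either scale, with a median of -0.27. Outside these lists, 2 genes tied to the pathway fell as deposited, though not in every fit. Acot2, a mitochondrial acyl-CoA thioesterase, was at 79.5, 69.5 and 74.6 TPM in the controls and 30.5, 28.7 and 33.3 TPM in Cend1-KO (adjusted p = 0.0117), and Ppargc1a, a coactivator of mitochondrial and fatty acid oxidation genes, at 39.3, 24.7 and 25.7 TPM in the controls and 11.7, 12.4 and 10.2 TPM in Cend1-KO (adjusted p = 0.0219). Without the filter on low values neither passed (adjusted p = 0.18 for Acot2 and 0.223 for Ppargc1a), in a fit that called 0 of 30114 genes. Acot2 also missed the threshold without control replicate 1 or 3 (adjusted p = 0.0803 and 0.0638), and Ppargc1a without control replicate 1 or 3 or Cend1-KO replicate 4 (0.18, 0.0647 and 0.104). After scaling, leaving out each library in turn gave adjusted p of 0.00396 to 0.036 for Acot2 and of 0.00707 to 0.0705 for Ppargc1a.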

How the data were processed

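The submitters' processing notes name HISAT2 2.0.5, featureCounts 1.5.0-p3, fastp and CASAVA, and the mouse build mm10. The authors deposited TPM values per gene; the sources used here give neither the computation nor the annotation. Because the values are not whole and every library has the same total, count tests, which the design allowed for, were not used. Per the labels' protocols, TRIzol was used for extraction and a NEBNext Ultra kit for the libraries. Columns were matched to libraries by the sample descriptions, because column numbers differ from title numbers.

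Identifiers were matched to GENCODE M21 (52029 of 57010). Genes reaching 1 TPM in 3 or more libraries were fitted on log2(TPM + 1) with limma 3.58.1 in R 4.3.3, with a mean-variance trend, a robust prior and Benjamini-Hochberg adjustment over 13542 genes; the pseudocount understates changes of low genes. The fit was tested on simulated data with noise independent between genes, with 13636 genes tested, and made 1 false call. Medians over lists are descriptions without a test. The members and lists were chosen with earlier results of these data known. All 31 members are named, and of each other pathway list the 4 genes with the smallest p. One gene that this rule takes is not reported here. Alternatives covered scaling, composition, filter, pseudocount, prior, trend, replicate block and each library left out; scaling by cardiomyocyte markers and leaving out Cend1-KO replicates 1 and 4 were added after seeing the data.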

Additional observations from a re-analysis of the deposited data

How the results depend on the processing

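Of 713 member differences recomputed under alternatives, 680 kept their direction and their side of the threshold, 18 passed it in addition and 15 reversed. These counts leave out scaling by cardiomyocyte markers and the fit without Cend1-KO replicates 1 and 4, both added after seeing the data. As deposited 0 members were called. Median-of-ratios scaling called 1 lower (Cpt1b), where 4.32% of all genes were, with a member median of -0.34. Removing mitochondrial genes, their nuclear copies and hemoglobin genes called 2 lower (Cpt1b and Fabp3), where 1.91% of all genes were called lower, with a median of -0.23. Scaling by cardiomyocyte markers, added after seeing the data, called 2 higher (Cd36 and Lpl), where 22% of all genes were. It turned the member median to 0.15, with all genes at 0.40, and left 6 of 31 differences below 0, against 28 as deposited. Leaving out Cend1-KO replicates 1 and 4, which held lung transcripts, called 19 lower and 1 higher (Cd36), where 40.8% and 1.86% of all genes were, with a median of -0.61 and all genes at -0.47. That fit compares Cend1-KO replicate 3 alone with the controls and assumes that it varies as they do. Leaving out each library gave 0 to 8 lower calls and medians from -0.52 to -0.20. Without Cend1-KO replicate 1, 2 members were called lower as deposited (Cpt1b and Fabp3), where 4.16% of all genes were. Without Cend1-KO replicate 3, 8 members were, where 2.35% of all genes were. The Cpt1b to Cpt1a ratio ran from -0.85 to -0.47 and Slc22a5 from -0.089 to 0.19. In the same fits Pnpla8 ran from -0.042 to 0.26, Hadhb from -0.46 to 0.041, Acad11 from -0.41 to 0.095 and Slc16a7 from -0.32 to 0.023. Slc22a5 turned to 0.12, 0.064, 0.23 and 0.12 under median-of-ratios, upper-quartile, mitochondrial removal and block with scaling, and Cpt1a to 0.023 and Acad11 to 0.0078 under mitochondrial removal. The cause of these turns was not tested. Same-numbered libraries did not deviate together (correlations of deviations -0.172, 0.0441 and -0.12). With so few libraries in each group, this cannot settle whether the numbers pair the libraries. With the replicate block 1 member was called lower (Cpt1b), where 2.75% of all genes were, against 0.908% of all genes without the block. With block and scaling 0 members were called, with a median of -0.34. There 3.15% of all genes were called lower, against 4.32% with scaling alone. DESeq2 was not run because no counts were used. Depth is unknown, so limits of detection are not given.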
